A study of Arabidopsis thaliana with 12 samples.

Results

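RALFL27, RALFL32 and RALFL33 encode members of the RALF (rapid alkalinization factor) family of plant signal peptides. They are 3 of the 11 genes whose symbols begin with RALFL and that have a probe set annotated to that single symbol, out of 13350 genes with such a probe set among the 22746 tested. Each is measured by 1 probe set. Their locus tags in RefSeq (assembly TAIR10.1) are AT3G29780 for RALFL27, AT4G14010 for RALFL32 and AT4G15800 for RALFL33. They were chosen by their measured values, as the RALFL genes called higher at 10 h on estradiol than on mock plates. All differences that involve the 0 h or the 10 h arrays are therefore given for these 3 genes as descriptions, without a test.

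RALF peptides are small, cysteine-rich and secreted into the cell wall. They were named for raising the pH outside the cell, and applied RALF peptides restrain root cell expansion. Their best known receptor is FERONIA, a receptor kinase at the plasma membrane that works together with GPI-anchored co-receptors of the LORELEI family, and RALF peptides also bind leucine-rich repeat extensins (LRX) in the wall. Some RALF precursors, RALFL33 among them, are cut by the subtilase S1P to release the peptide.

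The RNA came from Arabidopsis thaliana root tips of 0.5 mm in Col-0 background, dissected at 4 days post germination (± 4.5 h), with about 200 tips behind each array. All 4 groups carried pCRE1_XVE::MIR165A, in which the CRE1 promoter, active in the stele, drives the estradiol-responsive activator XVE, which switches on the microRNA precursor MIR165A. Mock seedlings (called 0 h) were on plates with ethanol alone, and the other groups were on 5 µM ß-estradiol in ethanol for 6 h, 10 h or 24 h. There were 3 biological replicates per group, each hybridised to 1 Affymetrix ATH1 array. The study asked how the root tip responds over time when miR165 is made in the stele. No array of estradiol-treated seedlings without the transgene is analysed here, and the only mock group is the one called 0 h, so miR165, estradiol and time on the plate cannot be told apart.

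Array medians lay between 5.97 and 6.13 on the log2 scale, and arrays correlated at 0.993 to 0.998 within groups and at 0.990 to 0.997 across groups. PHV, a stele-expressed miR165 target, fell by 0.52 at 10 h against 0 h (limma adjusted p = 0.00631), with differences of -0.31 at 6 h (limma adjusted p = 0.28) and -0.41 at 24 h (limma adjusted p = 0.0884). PHV was the 1 gene of 6 on the stele list with a named probe set. The root hair list had 2 of 8, the root hair expansins EXPA7 and EXPA18, and the lists for the meristem, the root cap and the shoot had none, so the labelled tissue could not be checked against its defining markers. In such bulk samples, a change in the number of cells of a type and a change in RNA per cell cannot be told apart.

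RALFL27 read 6.25, 5.98 and 6.47 on the 3 mock arrays, on the log2 scale. On the 6 h arrays it read 6.55, 6.65 and 7.26, on the 10 h arrays 7.87, 7.65 and 8.0, and on the 24 h arrays 6.91, 7.05 and 7.41. The 10 h arrays were the highest 3 of the 12, and every induced array lay above every mock array. Compared with 0 h, its mean was higher by 0.59 at 6 h, by 1.61 at 10 h and by 0.89 at 24 h (SE 0.18 each). Without 6 h replicate 3 the 6 h difference was 0.37. The 10 h difference is 3.05-fold and was the rank 67 increase of all 22746 probe sets in that comparison. From 10 h to 24 h the mean went down by 0.71 (SE 0.18), with all 24 h arrays below all 10 h arrays.

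RALFL32 read 8.34, 8.39 and 8.23 on the mock arrays. On the 6 h arrays it read 8.92, 8.74 and 8.94, on the 10 h arrays 9.22, 9.18 and 9.13, and on the 24 h arrays 8.82, 8.73 and 8.54. Here too every induced array lay above every mock array, and the replicates were close, with a within-group SD of 0.05 to 0.14. Its mean was higher than at 0 h by 0.55 at 6 h, by 0.86 at 10 h and by 0.38 at 24 h (SE 0.09 each). The 6 h mean of RALFL32 lay above its 24 h mean, while that of RALFL27 lay below. The 10 h difference of RALFL32 is 1.81-fold.

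RALFL33, whose peptide is also known to inhibit the assembly of immune receptor complexes, read 9.02, 9.13 and 9.07 on the mock arrays. On the 6 h arrays it read 8.57, 9.18 and 9.31, on the 10 h arrays 9.60, 9.63 and 9.62, and on the 24 h arrays 9.31, 9.23 and 9.47. The 6 h group spanned the mock values on both sides, with replicate 1 the lowest of all 12 arrays, while the 10 h values lay within 0.03 of each other. Its mean differed from 0 h by -0.05 at 6 h, 0.54 at 10 h and 0.26 at 24 h (SE 0.15 each). Without 6 h replicate 1 the 6 h difference was 0.17 and the step from 6 h to 10 h was 0.37 in place of 0.60. The 10 h difference of RALFL33 is 1.46-fold, and the 24 h arrays all lay above the mock arrays and below the 10 h arrays.

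**Figure D1:**
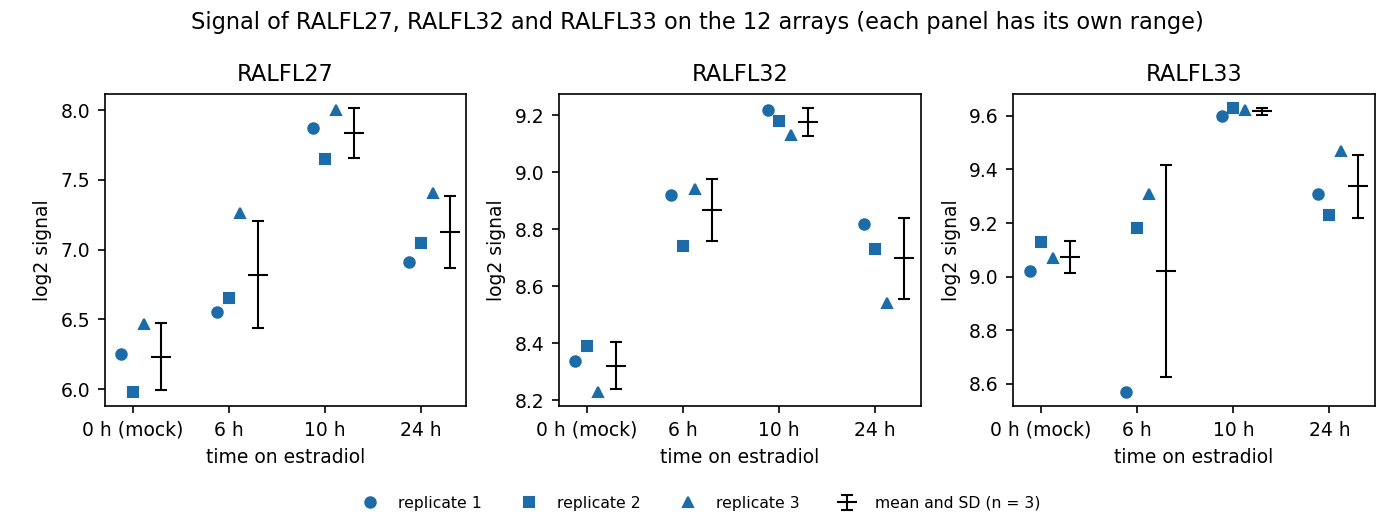
Log2 signal (vertical axis, with its own range in each panel) of RALFL27, RALFL32 and RALFL33 by time on estradiol (horizontal axis). Symbols are the 3 replicate arrays of each time, and bars give their mean and SD; the 10 h arrays are the highest in every panel, and RALFL33 at 6 h is the most scattered group, from 8.57 to 9.31.

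Across the 3 genes the 10 h arrays lay above all mock arrays, as 12.5% of all probe sets did, and the limma call that picked them was made for 4.7% of probe sets in the higher direction. They also lay above all 6 h arrays, as 10.1% of probe sets did, and the 24 h arrays lay below all 10 h arrays for all 3 genes, as for 11% of probe sets. All of these comparisons use the 10 h arrays on which the genes were chosen, so none is independent of that choice. At 6 h, RALFL27 and RALFL32 lay above all mock arrays, as 7.08% of probe sets did. At 24 h all 3 genes did, against 6.85% of probe sets. These 2 comparisons share the mock arrays with the one that chose the genes, so they are not independent of it. The share of probe sets that met several of these conditions at once, as RALFL27 and RALFL32 did, was not counted.

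The comparison of 24 h with 6 h, which was tested, uses the group means of neither 0 h nor 10 h. Its SE comes from the spread over all 12 arrays, as did that of the call that chose the genes, so it is not wholly independent of the choice. With the 6 h and 24 h arrays alone, the limma adjusted p = 0.54 for RALFL27, adjusted p = 0.517 for RALFL32 and adjusted p = 0.477 for RALFL33. None of the 3 passed with those arrays alone, where 178 of 22746 probe sets were called. In the model over all 12 arrays none of the 3 passed either, where 1.69% of all probe sets were called in either direction. The values that follow are from that model. RALFL27 was 0.30 higher at 24 h than at 6 h (95% interval -0.09 to 0.70, limma adjusted p = 0.465). RALFL32 was 0.17 lower (95% interval -0.37 to 0.03, limma adjusted p = 0.407). RALFL33 was 0.32 higher (95% interval 0.0049 to 0.63, limma adjusted p = 0.318). Single arrays moved each of these values by over 1.5 times: leaving out 24 h replicate 3 gave 0.16 for RALFL27. Its value was 0.17 when 6 h replicate 1 was left out and 0.53 when 6 h replicate 3 was. RALFL32 gave -0.09 without 24 h replicate 3, and RALFL33 gave 0.09 without 6 h replicate 1. The 6 h and 24 h arrays overlapped for each gene, and the intervals, which are not adjusted for the number of probe sets, leave room for changes of up to 0.70 for RALFL27 and 0.63 for RALFL33.

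Whether 2 of the genes changed by different amounts from 6 h to 24 h was tested on the difference of their log2 values within each array, for 3 pairs. RALFL32 changed by 0.49 less than RALFL33, with no overlap between the 6 h and 24 h arrays, and the exact two-sided permutation p = 0.1 is the smallest that 3 arrays against 3 allow (p = 0.3 after Benjamini-Hochberg adjustment over the 3 pairs). RALFL27 changed by 0.47 more than RALFL32 (exact permutation p = 0.3, adjusted p = 0.45). RALFL27 and RALFL33 differed by -0.01 (exact permutation p = 0.8, adjusted p = 0.8). Leaving out each array in turn, the unequal change was -0.63 to -0.23 for RALFL32 and RALFL33. It was 0.25 to 0.66 for RALFL27 and RALFL32, and -0.18 to 0.08 for RALFL27 and RALFL33. No pair passed, and no pair could have at this number of arrays.

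The choice of genes used the size of each gene's deviations from its group means, through the SE, but not the order of the arrays within a group. The correlation of these deviations between genes was therefore tested over the 12 arrays with all 1296 orderings within groups, which treat the 3 arrays of a group as interchangeable. For RALFL27, replicate 3 lay above and replicate 2 below the group mean in all 4 groups. RALFL27 and RALFL33 gave r = 0.54 (exact permutation p = 0.324, adjusted over the 3 pairs p = 0.539) and rho = 0.43 (exact permutation p = 0.326, adjusted p = 0.466), and r = 0.22 without 6 h replicate 3 and 24 h replicate 3, the arrays farthest from the median of RALFL27. RALFL27 and RALFL32 gave r = -0.37 (exact permutation p = 0.36, adjusted p = 0.539) and rho = -0.45 (exact permutation p = 0.234, adjusted p = 0.466), and r = -0.52 without the same 2 arrays. RALFL32 and RALFL33 gave r = -0.28 (exact permutation p = 0.589, adjusted p = 0.589) and rho = -0.29 (exact permutation p = 0.466, adjusted p = 0.466), and r = 0.01 without 6 h replicate 2 and 24 h replicate 3. No common movement of replicates was detectable for any pair.

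On the 24 h arrays, replicate 3 lay above its group mean by 0.29 for RALFL27 and by 0.13 for RALFL33, and below it for RALFL32, with a deviation of -0.16. EXPA7 and EXPA18 lay above theirs by 0.78 and 0.68 on the same array. RALFL27 deviated most on 6 h replicate 3, by 0.44, where EXPA7 was at 0.08 and EXPA18 at 0.02. RALFL33 deviated most on 6 h replicate 1, by -0.45, where EXPA7 was at -0.20 and EXPA18 at 0.01. The mean log2 signal of these 2 root hair genes ranged from 4.74 to 4.96 at 0 h, 4.85 to 5.00 at 6 h, 6.33 to 6.66 at 10 h and 4.71 to 5.98 at 24 h. Both rose at 10 h against 0 h, EXPA7 by 2.02 (limma adjusted p = 0.0004) and EXPA18 by 1.26 (limma adjusted p = 0.00186). The part of root hair cells in the values of the RALFL genes was not tested.

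**Figure D2:**
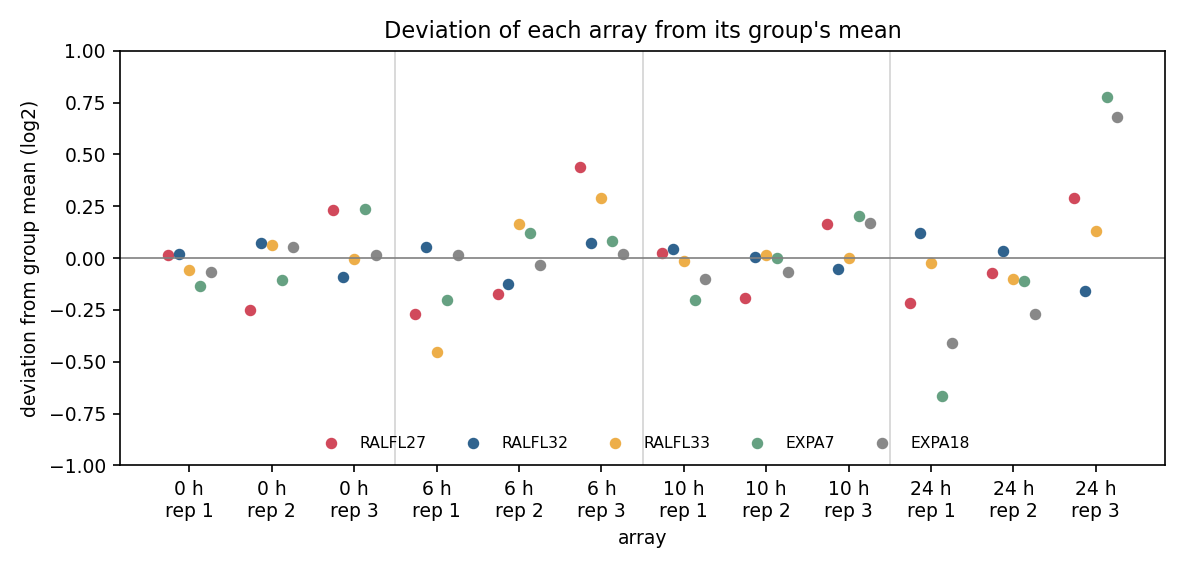
Deviation of each of the 12 arrays (horizontal axis) from the mean of its group (vertical axis, log2 scale) for RALFL27, RALFL32, RALFL33 and the root hair genes EXPA7 and EXPA18. On 24 h replicate 3, EXPA7 is at 0.78, EXPA18 at 0.68, RALFL27 at 0.29, RALFL33 at 0.13 and RALFL32 at -0.16. On 6 h replicate 3, RALFL27 is at 0.44, EXPA7 at 0.08 and EXPA18 at 0.02. On 6 h replicate 1, RALFL33 is at -0.45, EXPA7 at -0.20 and EXPA18 at 0.01.

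Of the 8 other RALFL genes, none was called at 6 h, 10 h or 24 h against 0 h, nor from 6 h to 10 h, 10 h to 24 h or 6 h to 24 h. Over all probe sets 0.422% were called at 6 h and 0.761% at 24 h against 0 h. At 10 h against 0 h, 4.7% were called higher and 2.79% lower. The share was 1.24% from 6 h to 10 h, 1.79% from 10 h to 24 h and 1.69% from 6 h to 24 h. At limma's unadjusted p under 0.05, 1 of the 8 passed from 0 h to 6 h (9.39% of all probe sets did), 2 from 0 h to 10 h (20.6%) and 0 from 0 h to 24 h (10.7%). At that level 1 passed from 6 h to 10 h (11.8%), 1 from 10 h to 24 h (15.5%) and 1 from 6 h to 24 h (15.3%). The median difference of these 8 was 0.00 at 10 h, against -0.01 over all probe sets. That none was called at 10 h follows from how the 3 genes were picked. Just outside that choice were RALFL24, 0.29 higher at 10 h, and RALFL22, 0.44 higher, with RALFL33 just inside at 0.54. Their limma adjusted p = 0.0502 for RALFL24 and adjusted p = 0.0592 for RALFL22 fell on the other side of the threshold under several of the alternatives tried.

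RALFL22, whose peptide is known from root hair walls, read 9.43, 9.69 and 9.31 on the mock arrays and 10.00, 9.78 and 9.96 on the 10 h arrays. Its 6 h arrays read 9.17, 9.47 and 9.55. At 24 h its values were 9.51, 9.55 and 9.89. As with RALFL33, 6 h replicate 1 was its lowest array of all 12, and the 10 h arrays all lay above the mock and the 6 h arrays. RALFL22 was 0.52 higher at 10 h than at 6 h (limma adjusted p = 0.0766), not past the threshold.

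RALFL24 read 9.24, 9.07 and 9.07 on the mock arrays. Its values were 9.41, 9.29 and 9.23 after 6 h. They were 9.39, 9.50 and 9.35 after 10 h, then 9.23, 9.15 and 9.14 after 24 h. Its 10 h arrays lay above the mock and the 24 h arrays and overlapped those of 6 h, with a difference from 10 h to 24 h of -0.25 (limma adjusted p = 0.158).

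RALFL34, which acts with the receptor THE1 in lateral root initiation, stayed between 10.23 and 10.49 on the 12 arrays and was 0.16 lower at 10 h (limma adjusted p = 0.269). RALFL31, separated from RALFL32 by 10 protein-coding genes in the RefSeq gene order, differed by 0.07 at 10 h (limma adjusted p = 0.834). RALFL18, RALFL25, RALFL26 and RALFL28 stayed below 5 on the log2 scale on all arrays, with values from 3.20 to 4.03, where RMA compresses changes. RALFL25 and RALFL26 are direct neighbours in that order.

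**Figure D3:**
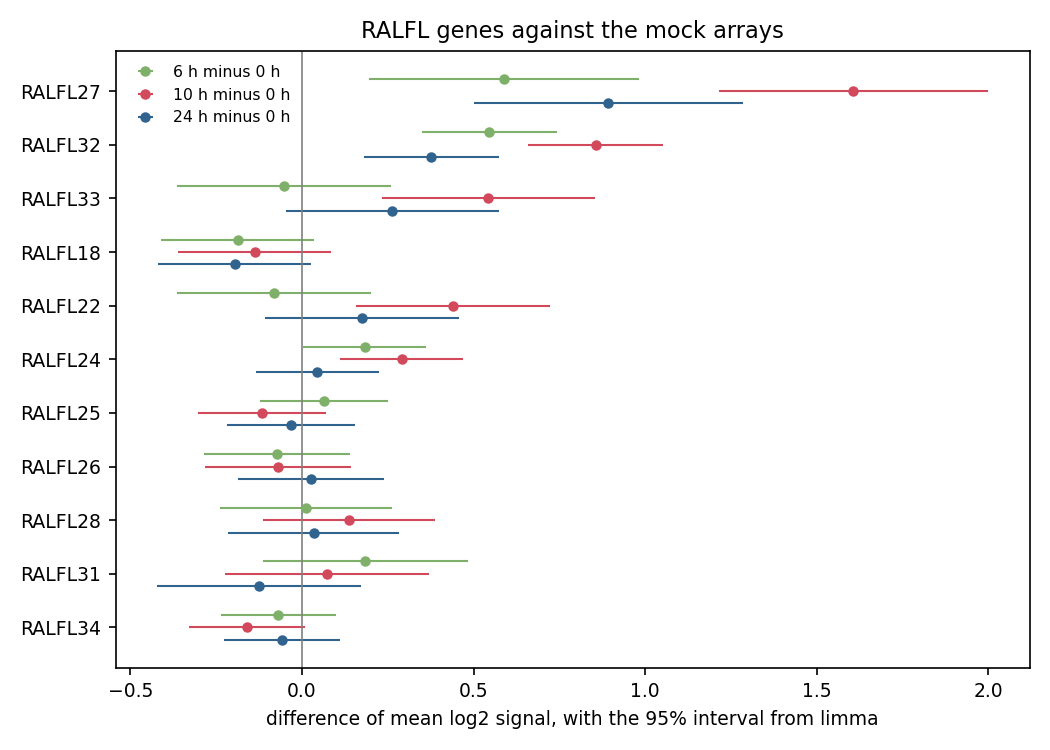
Difference of mean log2 signal from the mock arrays (horizontal axis) at 6 h, 10 h and 24 h for the 11 RALFL genes (vertical axis), with 95% intervals from limma that are not adjusted for the number of probe sets; n = 3 arrays per group. RALFL27, RALFL32 and RALFL33 were chosen for their 10 h difference, which is 1.61, 0.86 and 0.54; RALFL22 (0.44) and RALFL24 (0.29) come next.

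Of 28 genes listed for RALF perception and response, 11 had a named probe set. At 10 h against 0 h, 2 of the 11 rose and none fell, where 4.7% of all probe sets were called higher and 2.79% lower. With each array centred on its median, 930 probe sets were called higher and 828 lower, in place of 1070 and 635. The median difference of the 11 was 0.03, against -0.01 over all probe sets. The 2 were the receptor gene FER and AT2G41970. None of the 11 was called at 6 h or at 24 h against 0 h, where 0.422% and 0.761% of probe sets were. Nor was any called from 6 h to 24 h, where 1.69% were.

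FER, which encodes FERONIA, read 9.60, 9.81 and 9.80 on the mock arrays and 10.27, 10.10 and 10.21 on the 10 h arrays. Its 6 h arrays read 9.96, 9.80 and 9.97. At 24 h its values were 9.87, 10.12 and 10.06. The 10 h arrays lay above all mock and all 6 h arrays and overlapped those of 24 h. FER rose by 0.46 at 10 h (SE 0.09, limma adjusted p = 0.00882), higher in 3 of 3 arrays. Against 0 h it differed by 0.17 at 6 h (limma adjusted p = 0.619) and by 0.28 at 24 h (limma adjusted p = 0.25), and the step from 10 h to 24 h was -0.18 (limma adjusted p = 0.397). The call at 10 h held without each array in turn.

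AT2G41970 was entered by its locus tag among the genes acting downstream of the receptors, and the annotation tables give it no symbol. It read 5.27, 5.22 and 5.65 on the mock arrays. Its values were 5.22, 5.77 and 6.11 after 6 h. They were 7.17, 7.03 and 7.21 after 10 h, then 5.78, 5.77 and 6.35 after 24 h. The 10 h arrays were the highest 3 and stood clear of all the others. It rose by 1.76 at 10 h against 0 h (SE 0.20, limma adjusted p = 0.000211) and by 1.44 from 6 h to 10 h (limma adjusted p = 0.00405), where 1.17% of probe sets were called higher. From 10 h to 24 h it fell by 1.17 (limma adjusted p = 0.00967), where 1.06% were called lower, and that call ended without 10 h replicate 1 (limma adjusted p = 0.0515), 10 h replicate 3 (limma adjusted p = 0.0593) or 24 h replicate 2 (limma adjusted p = 0.0513).

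THE1, the gene of a receptor kinase that senses wall state, was 0.38 higher at 10 h (limma adjusted p = 0.103) and 0.41 higher at 24 h (limma adjusted p = 0.223). ANX1 and ANX2, receptor genes known from pollen tubes, lay between 3.27 and 3.69 on all arrays. The protease gene S1P, which encodes the enzyme that cuts RALF precursors, differed by 0.05 at 10 h (limma adjusted p = 0.827), with a 95% interval of -0.15 to 0.25. The other 5 loci, AT2G39360 and 4 entered under the LRX heading, differed from 0 h by -0.12 to 0.16 at all 3 times and none was called. Of these 5, only AT3G24480 lay above 5 on the log2 scale (6.05 to 6.58). AT2G39360, AT4G18670, AT3G22800 and AT5G25550 stayed below 5 on all arrays, as ANX1 and ANX2 did, where RMA compresses changes.

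**Figure D4:**
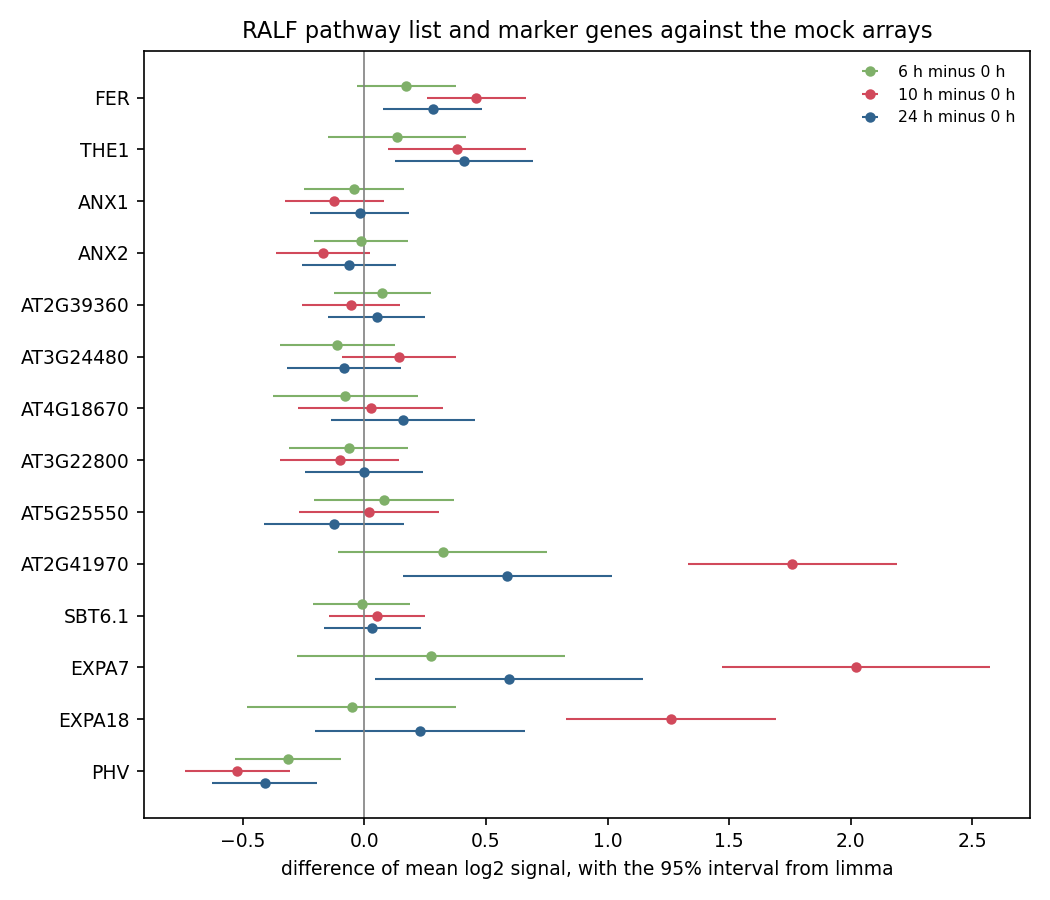
Difference of mean log2 signal from the mock arrays (horizontal axis) at 6 h, 10 h and 24 h for the 11 measured genes of the RALF pathway list and for the marker genes EXPA7, EXPA18 and PHV (vertical axis), with unadjusted 95% intervals from limma and n = 3 arrays per group. S1P is drawn under its subtilase name SBT6.1. At 10 h FER (0.46), AT2G41970 (1.76), EXPA7 (2.02) and EXPA18 (1.26) rose and PHV (-0.52) fell.

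For each of the 3 genes, the 5 single-symbol probe sets outside the family with the highest Pearson r of log2 signal over the 12 arrays are given as a description. The arrays share their groups, so a gene with a like course of group means scores high. Likeness of the means at 6 h, 10 h and 24 h therefore follows from how these genes were chosen. For RALFL27 these were TBL38, a wall polysaccharide acetyltransferase family gene (r = 0.973), AT4G20860 (r = 0.971), AT2G34910 (r = 0.965), PIA1 (AT2G20630), a protein phosphatase 2C gene (r = 0.964), and AT5G28630 (r = 0.963). All 5 had their highest group mean at 10 h and a 24 h mean between those of 6 h and 10 h, as RALFL27 did. AT2G41970 correlated with RALFL27 at r = 0.952, with RALFL33 at r = 0.878 and with RALFL32 at r = 0.740.

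For RALFL32 they were AT1G30130 (r = 0.952), AT1G13930 (r = 0.935), AT4G33660 (r = 0.920), AT1G26970 (r = 0.917) and AT1G72500 (r = 0.914). AT1G13930 had a mean of 6.00 at 0 h and 8.18 at 6 h, so that most of its 10 h difference of 3.04 was present at 6 h, as it was for RALFL32. For RALFL33 they were AT2G39040 (r = 0.964), AT5G01210 (r = 0.955), AT3G10470 (r = 0.947), AT2G37440 (r = 0.944) and AT4G14650 (r = 0.938). The 6 h means of these 5 were within 0.18 of their 0 h means, as that of RALFL33 was. For AT5G01210 (4.808 and 4.825) and AT4G14650 (4.60 and 4.68) the 0 h and 6 h means lay below 5, where RMA compresses changes.

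No gene stood among the 5 of more than 1 of the 3 genes. Of the 50 most alike, RALFL27 and RALFL33 shared 9 (18% of each list), RALFL27 and RALFL32 shared 3 (6% of each), and RALFL32 and RALFL33 shared 0. With Spearman's rho in place of Pearson's r, 2 of the 5 stayed for RALFL27, 3 for RALFL32 and 1 for RALFL33. Among probe sets with a mean of at least 5, AT3G21770 replaced AT5G28630 for RALFL27, and AT5G13500 replaced AT4G14650 for RALFL33.

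**Figure D5:**
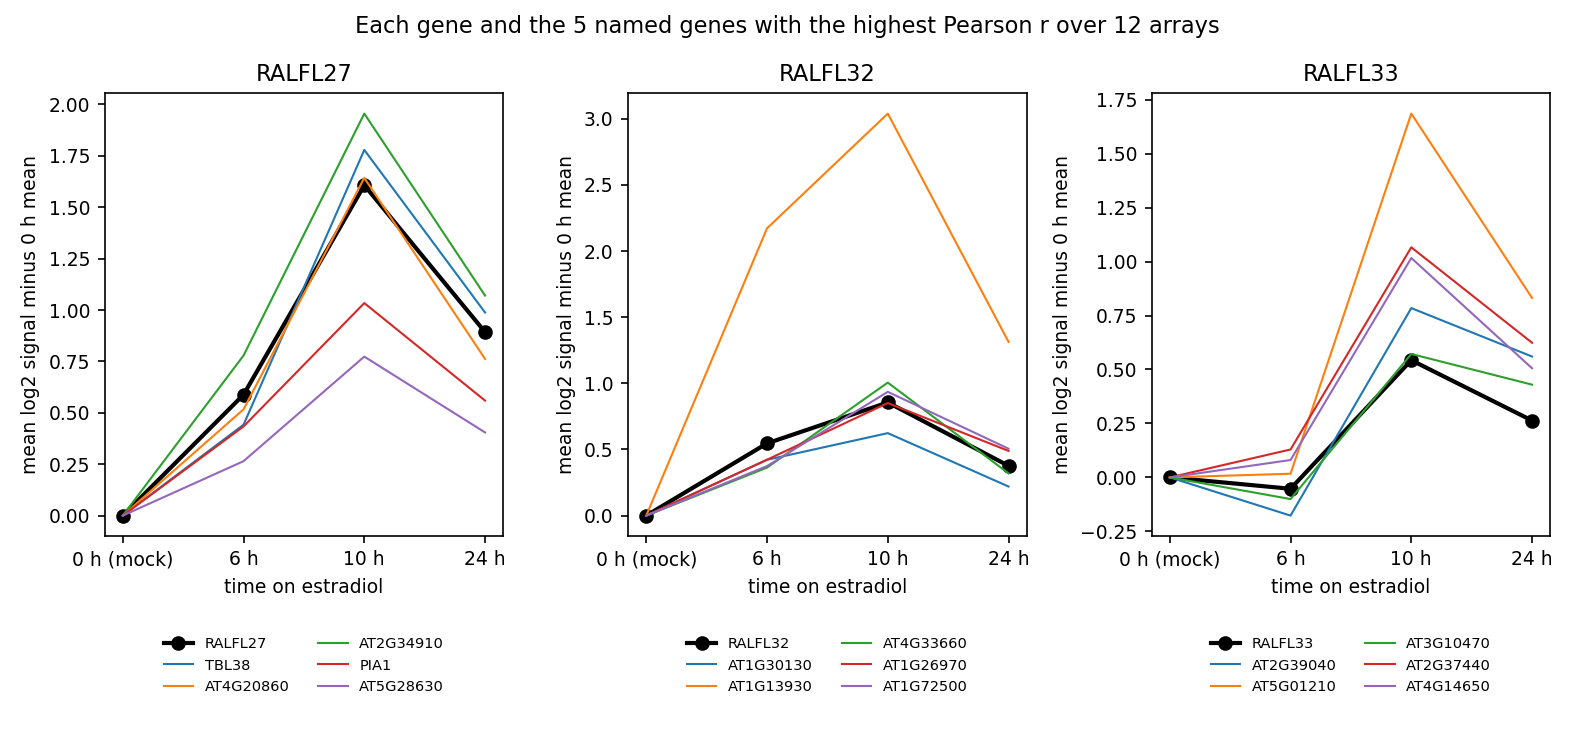
Mean log2 signal minus the 0 h mean (vertical axis, with its own range in each panel) by time on estradiol (horizontal axis) for each RALFL gene (black, points) and the 5 named genes with the highest Pearson r over 12 arrays (coloured lines); each point is a mean of 3 arrays. The 6 h means of the RALFL33 panel stay within 0.18 of 0 h. In that panel the signals of AT5G01210 and AT4G14650 are below 5 at 0 h and 6 h. RALFL32 is at 0.55 and RALFL27 at 0.59 at 6 h.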

How the data were processed

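The deposited values are log2 signals of one-colour ATH1 arrays. Per the submitters' processing notes, the authors used Affymetrix Expression Console, RMA and limma, and no version of these is given in the sources used here. In RMA, background is corrected, array distributions are matched and probes are summarised, and low signals are pulled together. The values were used as deposited, from 250 ng of total RNA per array per the labels.

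Of 22810 probe sets, 64 controls were left out. A single symbol was given to 13513 probe sets by the platform annotation, and several to 503. The gene ID of RALFL22 in it is not the one RefSeq gives, so that gene was matched by symbol. Each contrast came from 1 linear model over all 12 arrays in limma 3.58.1 (R 4.3.3), with empirical Bayes moderation. The p-values had Benjamini-Hochberg adjustment over 22746 probe sets, with a threshold of 0.05. Of the contrasts, only 10 h against 0 h was also tried on simulated data, and that outcome is not given here. The number of arrays limits the precision. Exact permutation tests used scipy 1.17.1.

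The genes and the lists were chosen with earlier results of these data known. The rule named the 3 genes, all other RALFL genes, the measured genes of the pathway and marker lists and the 5 genes most alike. The alternatives were other scalings, a dim filter at a mean of 5, other variance moderation, array weights, a replicate block, the 2 groups alone, a 1.5-fold minimum and each array left out. The labels number replicates 1 to 3 in each group and do not say that a number marks a shared source, so no block was used. No sequences are shown.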

Additional observations from a re-analysis of the deposited data

Results flagged for a closer look

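AT2G41970 differed between times by the test of the difference itself: it was 1.44 higher at 10 h than at 6 h (limma adjusted p = 0.00405) and changed by -1.17 from 10 h to 24 h (limma adjusted p = 0.00967), on the log2 scale with 3 arrays per group. The first call held without each array in turn, and the second ended without 10 h replicate 1, 10 h replicate 3 or 24 h replicate 2.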

How the results depend on the processing

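The differences of RALFL27, RALFL32 and RALFL33 moved by less than 1 SD between replicates under the 7 settings other than leaving out arrays. Of these, only median centring, quantile normalization and array weights could move a difference of group means. The dim filter, other variance moderation, the replicate block and the 2 groups alone leave it as it is by design. Leaving out each array in turn gave 1.48 to 1.72 for RALFL27, 0.81 to 0.89 for RALFL32 and 0.52 to 0.57 for RALFL33 at 10 h against 0 h. At 6 h against 0 h it gave 0.37 to 0.72 for RALFL27, and -0.20 to 0.17 for RALFL33, which also gave 0.37 to 0.74 from 6 h to 10 h. From 6 h to 24 h it gave 0.16 to 0.53 for RALFL27, -0.23 to -0.09 for RALFL32 and 0.09 to 0.46 for RALFL33; with array weights RALFL32 gave -0.07 and RALFL33 0.14. None of the 3 passed under any alternative (lowest limma adjusted p = 0.157).

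The count of other RALFL genes called at 10 h, 0 here, was 1 with quantile normalization, the replicate block or the 2 groups alone and 2 with the dim filter, trend and robust moderation or array weights; it was 0 to 2 without each array in turn. The limma adjusted p of RALFL22 was 0.0181 to 0.186 and that of RALFL24 0.0215 to 0.181 over all alternatives. From 6 h to 10 h the count was 1 with trend and robust moderation, array weights or the 2 groups alone (0 to 1 without each array), and from 10 h to 24 h it was 1 with array weights. Of the pathway genes 1 in place of 2 passed at 10 h with the 1.5-fold minimum, 2 in place of 1 from 6 h to 10 h with array weights, and 0 to 1 from 10 h to 24 h without each array. THE1 passed at 10 h with the 2 groups alone (limma adjusted p = 0.0379) and without 6 h replicate 3 (limma adjusted p = 0.0371).

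Over all probe sets, 6 h against 0 h gave 96 calls, 169 with trend and robust moderation, 239 with array weights, 160 with the replicate block and 34 to 184 without each array. For 10 h against 0 h there were 1705 calls, 699 with the fold minimum and 875 to 2151 without each array. For 24 h against 0 h there were 173, 520 with array weights, 355 with the replicate block, 53 with the 2 groups alone and 65 to 225 without each array. From 6 h to 10 h there were 283, 1351 with array weights, 481 with the block, 483 with the 2 groups alone and 64 to 469 without each array. From 10 h to 24 h there were 407, 184 with the fold minimum, 685 with trend and robust moderation, 2068 with array weights, 646 with the block and 93 to 799 without each array; centring on the median moved the split from 165 higher and 242 lower to 218 and 193. From 6 h to 24 h there were 384, 205 with the fold minimum, 588 with trend and robust moderation, 2670 with array weights, 178 with the 2 groups alone and 110 to 565 without each array. The cause was not tested.

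The within-group correlations ranged, without each array, from -0.84 to -0.10 for RALFL27 with RALFL32, from 0.22 to 0.70 for RALFL27 with RALFL33 and from -0.61 to -0.13 for RALFL32 with RALFL33. The falls of EXPA7 and EXPA18 from 10 h to 24 h were no longer called with the 2 groups alone (limma adjusted p = 0.0559 and limma adjusted p = 0.0832). The call also ended for EXPA7 without 10 h replicate 2, 10 h replicate 3 or 24 h replicate 2 (limma adjusted p up to 0.0738), and for EXPA18 without any 1 of the 10 h arrays or 24 h replicates 1 or 2 (limma adjusted p up to 0.1).

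In deviations from group means, 8 of 18 pairs of arrays with the same replicate number correlated above 0.1 (range -0.10 to 0.28, median 0.06), against 5 of 36 pairs with other numbers (median -0.01), and 9 of 12 arrays correlated best with an array of their own number. The labels do not say that a number marks a shared source, so the samples were not treated as paired. Not every same-numbered pair passed 0.1, but that cannot exclude a shared source. The values are a hint from the data that numbers may share something. The main SEs and the orderings within groups do not allow for such sharing. The results with the replicate block are those given above.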
